A study of Mus musculus with 9 samples.

Results

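The complement genes described here are C3, Cfb, Cfd and Cfp, which encode the hub protein and the factors of the alternative pathway, and C1qa, C1qb, C1qc, C2 and C4b, which encode components of the classical pathway. They were found by matching their mouse symbols to Ensembl gene identifiers. All 9 had a row in the deposited table, out of 21930 gene rows. The table holds RNA sequencing values from mouse nasal mucosa in 3 groups of 3 libraries each, all labelled wild-type, with tissue taken on day 12. Control mice have the treatment label "none", and the labels do not say whether they received a vehicle. The papain group (eCRS in the labels, for eosinophilic chronic rhinosinusitis) was given 20 µg of papain, a plant protease allergen, in 20 µl into the nose on days 0 to 2 and again on days 7 to 11. The papain-plus-exosome group (eCRS_Exo) had the same papain courses and, on days 7 to 11, MSC-Exos, exosomes from mesenchymal stem cells. There was no group given exosomes without papain. Nothing in the labels ties the libraries to individual animals, and p-values therefore reflect how far these 9 libraries scatter, part of which may be technical.

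Complement is a cascade of plasma and tissue proteins that marks surfaces for uptake, recruits leukocytes and can form pores in membranes. C1q, built from 3 different chains, binds antibody complexes and damaged cells and starts the classical pathway, in which C4 and C2 are cut to form an enzyme that cleaves C3. In the alternative pathway factor B binds C3b, factor D cuts the bound factor B, and properdin stabilises the resulting enzyme, so that C3 cleavage amplifies itself. The liver makes most plasma complement. In mucosa, epithelial and stromal cells also make C3 and factor B, and macrophages are a main source of C1q.

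FPKM is a relative unit, fragments per kilobase of transcript set against all fragments of the library, and the libraries differed in what filled them. The share of the 15 genes of highest mean FPKM was taken after multiplying each FPKM value by the exon length of its gene. It was 51.5% ± 1.55 (SD, n = 3) in the controls, 41.2% ± 9.08 in the papain group and 23.2% ± 9.72 in the papain-plus-exosome group. Papain library 2, at 51.4%, was like the controls, and papain-plus-exosome library 3, at 34.2%, was like the other papain libraries. With this shift the median gene rose on the deposited scale, by 0.19 on the log2(FPKM + 1) scale in papain against control, 0.56 in papain-plus-exosome against papain and 0.76 in papain-plus-exosome against control. Each result is therefore given also after median-of-ratios scaling of the libraries, which left the median gene within 0.01 of no change in each comparison. Values below are as deposited unless called scaled. Changes are differences in mean log2(FPKM + 1), which understates changes of low genes, and adjusted p-values are from limma with Benjamini-Hochberg adjustment over all genes tested, at a threshold of 0.05. In every library the odorant-binding and Bpifb genes of nasal glands and the olfactory neuron gene Omp were above 0, as were the epithelial markers. Depth was roughly 15.1 to 24.7 M (mega) fragments per library. In bulk tissue, fewer cells of a type and less RNA per cell cannot be told apart.

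Cfd did not reach the filter of 1 FPKM in at least 3 libraries, and the other 8 genes were tested. In papain against control, 4 of the 8 were called higher and none lower, where 3.01% of all 12738 genes tested were called higher and 0.518% lower. The same number, 4 of 8, was called higher after scaling, beside 5.77% of 12507 genes called higher and 4.15% lower. C3, C1qa and C1qc were called on both scales, C4b as deposited and Cfp after scaling. As deposited, C4b passed the filter only through the papain groups, its controls being under 1 FPKM. The median change of the 8 genes was 0.75 as deposited against 0.19 for all genes, and 0.58 scaled against -0.00399. Without papain library 2 and papain-plus-exosome library 3, which were chosen for this after the data were seen, 7 of the 8 were called higher, but so were 48.8% of all genes (1.44% lower), so that this count is no result about these genes. The count was 2 without any single control library, and also 2 without papain library 3. The share of all genes called was not taken in those runs, so these counts are likewise no result about these genes. With a log2 change of at least 1 also required, C3 and C1qa stayed as deposited, beside 1.47% of all genes higher and 0.259% lower, and C3 alone stayed when scaled, beside 0.927% higher and 0.552% lower.

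In papain-plus-exosome against papain, 7 of the 8 genes were called higher as deposited, C4b being the exception, but so were 63% of all genes tested, with 0.73% lower. After scaling, 1 of the 8, Cfb, was called higher and none lower, beside 13.4% of all genes called higher and 16.2% called lower. The median change of the 8 genes was 0.65 as deposited against 0.56 for all genes, and 0.03 scaled. Papain-plus-exosome against control called all 8 tested genes higher as deposited, beside 84.3% of all genes higher and 0.526% lower, and 6 of 8 after scaling, beside 12.3% higher and 15.6% lower. The 3 comparisons share libraries and are not independent of each other. C2 and C4b were the pair not called in the last comparison after scaling. With a log2 change of at least 1 also required, 1 gene (Cfb) stayed in papain plus exosomes against papain, beside 8.75% of all genes higher and 0.29% lower, and none when scaled, beside 0.632% and 0.88%. Against control 6 stayed as deposited, beside 22.4% higher and 0.188% lower, and C3 and Cfb stayed when scaled, beside 0.696% higher and 0.888% lower.

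**Figure D1:**
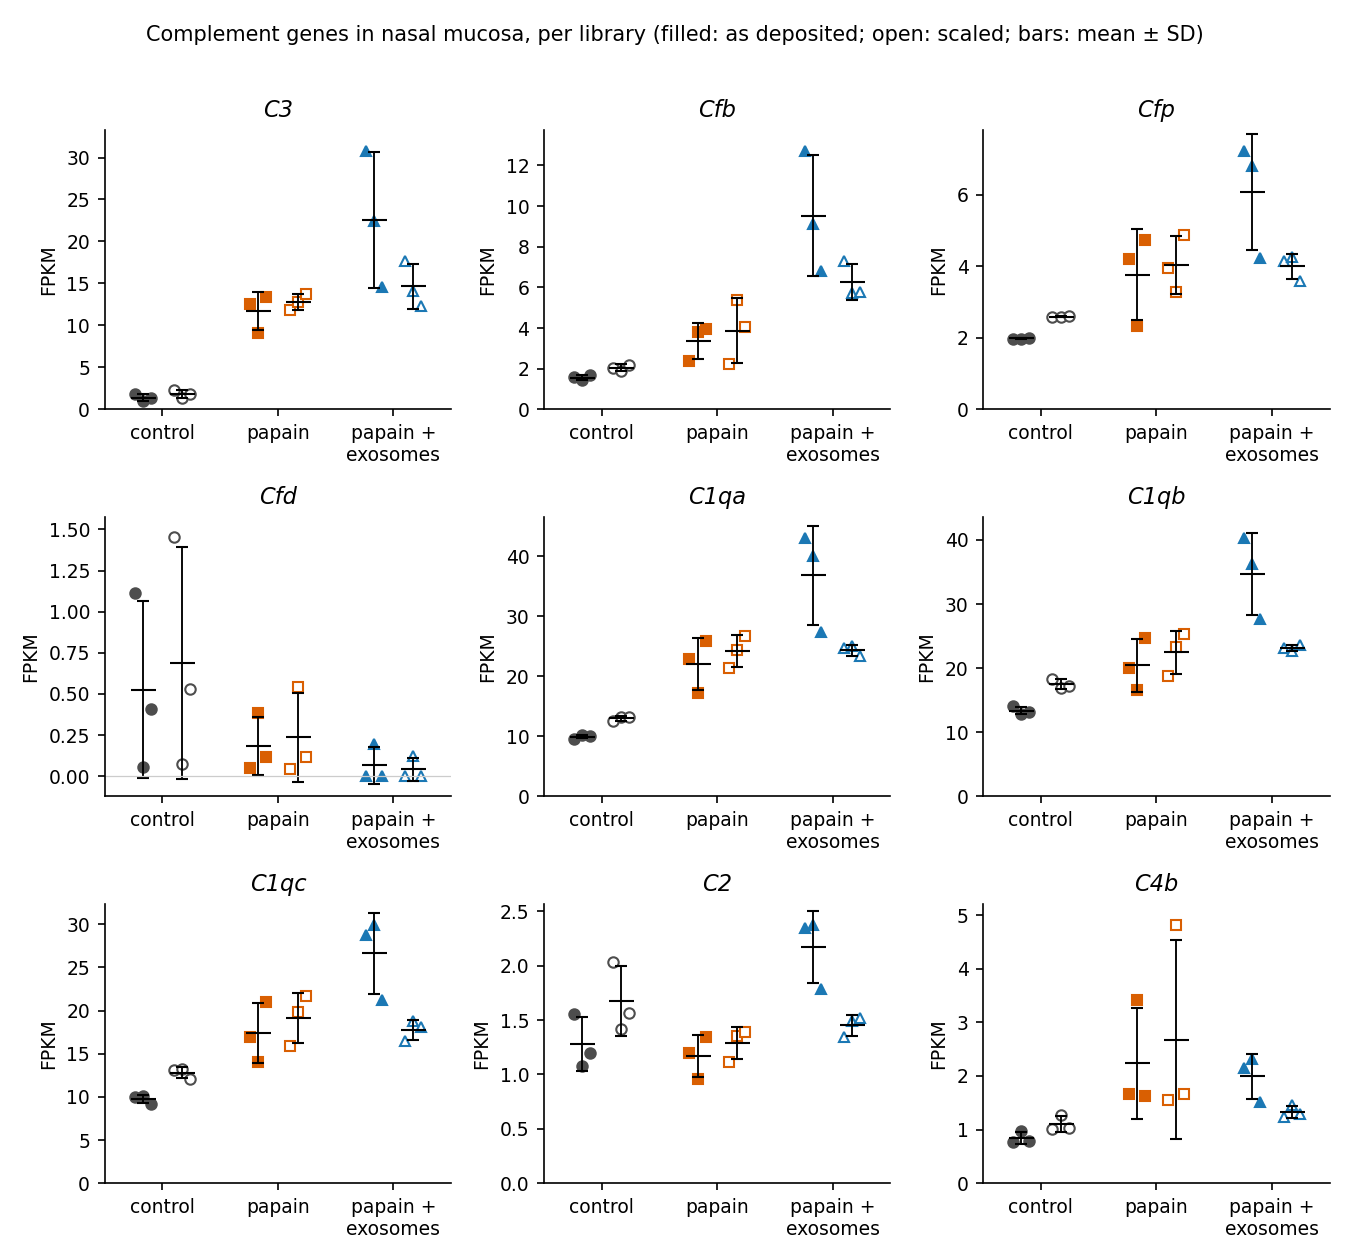
FPKM of each of the 9 complement genes in every library of the control, papain and papain-plus-exosome groups. Filled marks are values as deposited, open marks are scaled values, and bars give the mean ± SD of 3 libraries. The control libraries of C3 lie at 0.993 to 1.79 FPKM and the papain libraries at 9.11 to 13.4 FPKM.

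C3, the protein that both pathways cleave, had the largest change of the 8 tested genes in papain against control. Its control libraries held 1.79, 0.993 and 1.38 FPKM, the papain libraries 12.6, 9.11 and 13.4, and the papain-plus-exosome libraries 30.7, 22.5 and 14.5. No papain library came near any control library. The papain mean of 11.7 ± 2.26 FPKM was 8.42 times the control mean of 1.39 ± 0.401, a log2 change of 2.41 ± 0.24 (SE; adjusted p = 1.58e-06). Scaled, the ratio of means was 7.04 and the log2 change 2.31 ± 0.15 (adjusted p = 4.62e-05). The call held in each alternative run, including the leaving out of each library.

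C3 in the papain-plus-exosome group averaged 22.6 ± 8.11 FPKM, 1.93 times the papain mean, and the log2 change of 0.85 ± 0.24 passed the test (adjusted p = 0.00586). The scaled libraries, however, held 11.8, 12.8 and 13.8 FPKM with papain and 17.6, 14.1 and 12.4 with papain plus exosomes. These 2 groups overlap, and the scaled change of 0.17 was not called (adjusted p = 0.416). Against control, C3 rose on both scales, 16.3-fold in means as deposited and 8.08-fold scaled (adjusted p = 2.1e-08 and 4.67e-05).

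C3 lies on the minus strand of chr17:57203970-57228136 in GRCm38. The 250 bases before its RefSeq start site (GRCm38.p6, chr17:57228137-57228386, minus strand) are shown because C3 moved furthest. Capitals mark the only match to the letters TTGCGNAA, a C/EBP-type motif, 45 to 38 bases before the start.

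C3: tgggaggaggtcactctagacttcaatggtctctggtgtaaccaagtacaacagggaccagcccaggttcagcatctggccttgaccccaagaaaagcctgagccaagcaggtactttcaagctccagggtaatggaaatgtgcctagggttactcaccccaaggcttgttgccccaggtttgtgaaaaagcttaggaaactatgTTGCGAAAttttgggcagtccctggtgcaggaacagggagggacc

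Both strands of such windows were searched for 5 motifs. TTGCGNAA was found in 0.67% of 32851 windows of the same length from all promoters in the table. The interferon-response motif, found in 2.98%, TTCNNNGAA, a STAT type found in 7.02%, and the NF-kappaB motif, found in 3.9%, had no match in the C3 window. TTGCGNAA and GAGGAA were added to the search after the windows were seen, and a match of letters does not show binding.

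Cfb encodes factor B, which supplies the protease of the alternative-pathway C3 convertase. It held 1.57, 1.42 and 1.69 FPKM in the controls, 2.37, 3.80 and 3.94 with papain and 12.7, 9.11 and 6.79 with papain plus exosomes. Every papain-plus-exosome library was above every papain library, and these were above every control. The rise from papain to papain plus exosomes was 1.25 ± 0.22 (adjusted p = 0.000521), with a ratio of means of 2.83. Scaled libraries also stood apart, at 2.21, 5.36 and 4.06 against 7.27, 5.71 and 5.77 FPKM, and the scaled rise was 0.62 ± 0.21 (adjusted p = 0.0484). That scaled call was lost when any single library but papain 2 was left out (adjusted p 0.0625 to 0.157), and without papain library 1 the change was 0.35.

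In papain against control the Cfb change of 0.75 ± 0.22 was not called (adjusted p = 0.0591), nor was the scaled change of 0.63 (adjusted p = 0.0886). It was called without papain library 1, at 0.93 (adjusted p = 0.0134), and also without papain-plus-exosome library 1 or 3, which alter only the estimated spread (adjusted p = 0.0304 and 0.0103). With a pseudocount of 0.1 it was called at 1.03 (adjusted p = 0.0264). Papain-plus-exosome against control was called on both scales, at 2.00 as deposited and 1.25 scaled (adjusted p = 2.94e-06 and 0.00402). Cfb sits on the minus strand at chr17:34856374-34862518, and the near end of C2, its 3′ end, lies 86 bases beyond. The read-through gene Gm20547 overlaps both, so reads could be shared between these annotations.

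Cfp encodes properdin, the stabiliser of the alternative-pathway convertase. The controls lay close together at 1.98, 1.97 and 2.01 FPKM, the papain libraries at 4.22, 2.33 and 4.75, and the papain-plus-exosome libraries at 7.22, 6.81 and 4.22. Papain library 2 lay nearest to the controls. The papain rise of 0.64 was not called as deposited (adjusted p = 0.132), while the scaled rise of 0.47 ± 0.11 was (adjusted p = 0.028). Without papain library 2 the deposited rise was 0.88 and was called (adjusted p = 0.0111), and without papain-plus-exosome library 3 it was called at the same size (adjusted p = 0.0354). The scaled call was lost without any single control library, papain 1 or papain 3 (adjusted p 0.0511 to 0.0844).

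Between papain and papain plus exosomes Cfp rose by 0.58 as deposited (adjusted p = 0.0291), and the scaled difference was close to 0 (adjusted p = 0.989). The deposited call was lost without papain 2, where the change was 0.34, or without papain-plus-exosome 1 or 2 (adjusted p 0.102 to 0.165). Against control, the papain-plus-exosome group was higher by 1.22 and, scaled, by 0.47 (adjusted p = 0.000199 and 0.0154). The scaled call was lost without papain-plus-exosome library 1 or 2 (adjusted p = 0.0608 and 0.0548). Cfp is at chrX:20925454-20931555 on the minus strand.

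Cfd, on chr10:79890853-79892655, encodes factor D, known also as adipsin from its high expression in fat. It was listed at 1.11, 0.056 and 0.406 FPKM in the controls, 0.0485, 0.386 and 0.115 with papain, and 0, 0.195 and 0 with papain plus exosomes. The highest value corresponds to roughly 24.9 fragments. The groups overlap and no test was made at this level. Among 7 adipocyte markers, Lep was at 0 in 8 libraries, Plin1 in 4 and Cidec in 4, while Adipoq averaged 0.279, 0.143 and 0.0855 FPKM in the control, papain and papain-plus-exosome groups. Fabp4 averaged 4.18, 2.61 and 2.66 FPKM, and Lipe went the other way, at 1.16, 2.51 and 4.08. In papain plus exosomes against control, Fabp4 was called lower and Lipe higher on both scales. The 7 markers summed to 5.24 to 6.13, 5.004 to 5.73 and 6.78 to 6.97 FPKM, most of it from Fabp4 and Lipe, and scaled to 6.87 to 8.02, 5.15 to 7.05 and 3.95 to 5.93. Their part in the Cfd values was not tested.

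The 3 C1q chain genes had the highest mean FPKM of the 9 in every group. They lie together within 18675 bases on the minus strand of chromosome 4, at chr4:136895917-136898803 for C1qa, chr4:136889804-136893065 for C1qc and chr4:136880129-136886187 for C1qb. RefSeq promoter windows were found for 5 of the 9 genes (C3, Cfd, Cfp, C1qb and C1qc). The C1qb window (GRCm38.p6, chr4:136886201-136886450, minus strand) is shown because the core letters GAGGAA of a PU.1-type motif, marked in capitals, lie 30 to 25 bases before its start.

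C1qb: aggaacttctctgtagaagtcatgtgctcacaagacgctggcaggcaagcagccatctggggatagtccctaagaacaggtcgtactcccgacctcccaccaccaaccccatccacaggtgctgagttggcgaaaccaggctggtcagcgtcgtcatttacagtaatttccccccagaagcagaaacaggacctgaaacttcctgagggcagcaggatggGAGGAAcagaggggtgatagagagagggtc

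GAGGAA is common, with a match in 23.3% of all windows. In C1qc it matched on the opposite strand, 193 to 188 bases before the start, and an NF-kappaB match lay 41 to 32 bases before the start. The Cfd and Cfp windows held none of the 5 motifs.

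C1qa held 9.60, 10.1 and 10.1 FPKM in the controls, 22.9, 17.3 and 25.9 with papain and 43.0, 40.1 and 27.5 with papain plus exosomes. The 3 groups did not overlap as deposited. The papain rise was 1.05 ± 0.20 (adjusted p = 0.00394), with a ratio of means of 2.21, and scaled it was 0.84 ± 0.09 (adjusted p = 0.000541), with a ratio of 1.85. Without papain library 3 the deposited rise was 0.93 (adjusted p = 0.0503), while the scaled call held with each library left out. From papain to papain plus exosomes the deposited rise of 0.71 (adjusted p = 0.00717) became 0.02 scaled (adjusted p = 0.897), with scaled libraries at 21.4, 24.4 and 26.7 against 24.7, 25.1 and 23.4 FPKM. Papain plus exosomes exceeded control on both scales, by 0.86 scaled (adjusted p = 0.000648).

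C1qc held 9.99, 10.1 and 9.23 FPKM in the controls, 17.0, 14.1 and 21.04 with papain and 28.8, 29.9 and 21.2 with papain plus exosomes. Its papain rise was 0.75 (adjusted p = 0.0345) and scaled 0.54 ± 0.11 (adjusted p = 0.0149). The deposited call was lost without any single control or without papain 3 (adjusted p 0.11 to 0.302), and the scaled call without control 3 or papain 3 (adjusted p = 0.064 and 0.0576). The deposited rise from papain to papain plus exosomes, 0.59 (adjusted p = 0.0151), turned to -0.09 after scaling (adjusted p = 0.548). It was also lost without papain 2 or papain-plus-exosome 1 or 2 (adjusted p 0.0518 to 0.0821).

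C1qb held 14.0, 12.9 and 13.2 FPKM in the controls, 20.1, 16.5 and 24.6 with papain and 40.3, 36.3 and 27.7 with papain plus exosomes. The groups did not overlap, but the papain change of 0.56 was not called (adjusted p = 0.139), nor the scaled 0.33 (adjusted p = 0.0698). It was called without papain 2 as deposited, at 0.69 (adjusted p = 0.0225), and without papain 1 scaled, at 0.45 (adjusted p = 0.0105). Papain plus exosomes against papain gave 0.74 (adjusted p = 0.0046) and, scaled, 0.05 (adjusted p = 0.743).

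Against control, C1qb was higher with papain plus exosomes by 1.30 and C1qc by 1.34 as deposited (adjusted p = 6.86e-05 and 5.2e-05), and by 0.38 and 0.44 scaled (adjusted p = 0.0233 and 0.0172). Scaled, the C1qb call was lost without control 2 or 3 or papain-plus-exosome 1 or 2 (adjusted p 0.0574 to 0.071). The scaled C1qc call was lost without control 3 or papain-plus-exosome 2 (adjusted p = 0.0619 and 0.0597).

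**Figure D2:**
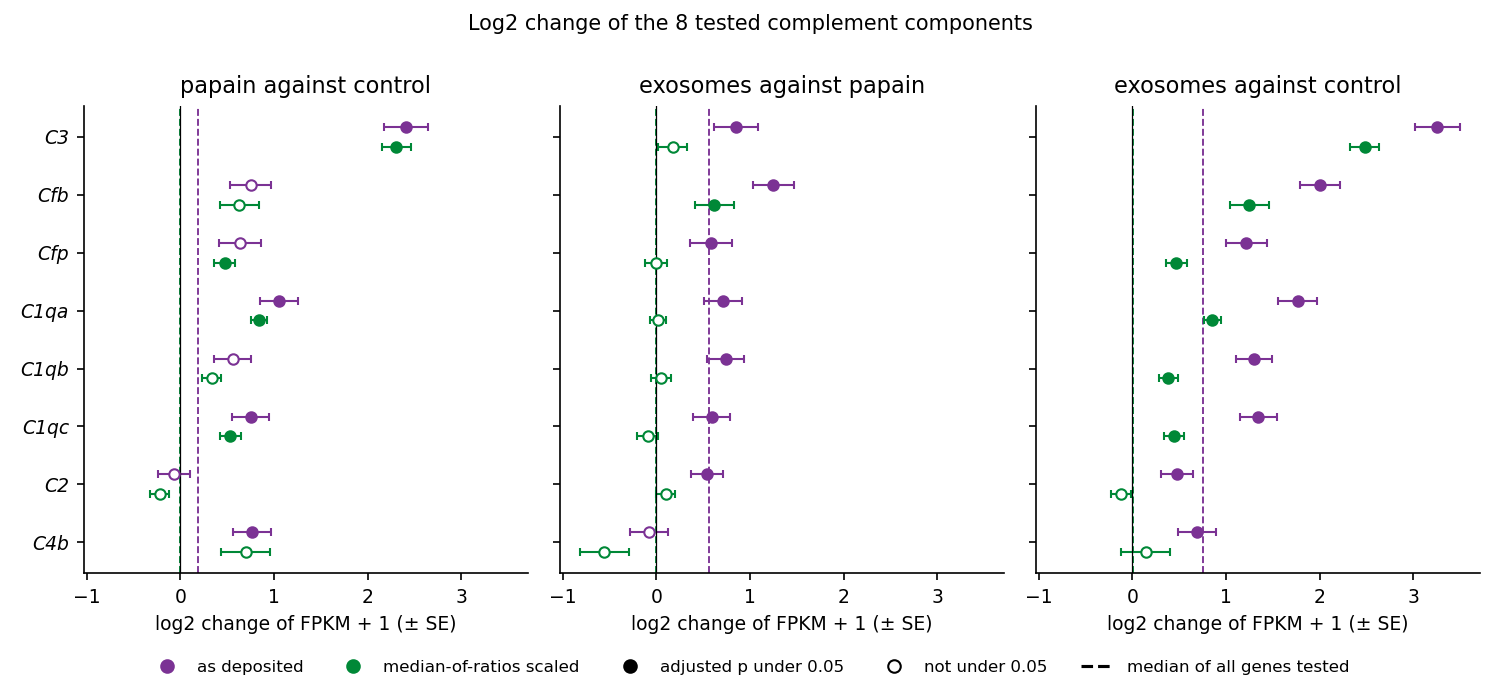
Change in log2(FPKM + 1) with its standard error for the 8 tested complement genes in each of the 3 comparisons, as deposited and after scaling. C3 changed by 2.41 as deposited and 2.31 scaled in papain against control, whereas the C1q chains changed by 0.59 to 0.74 as deposited and by -0.09 to 0.05 scaled in papain plus exosomes against papain.

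The balance of the C1q chains differed between groups in a way that no scaling of a library can alter, since both genes of a ratio come from the same library. C1qb over C1qa was 1.46, 1.27 and 1.30 in the controls, 0.879, 0.955 and 0.950 with papain, and 0.936, 0.905 and 1.01 with papain plus exosomes. Every control library had more C1qb than C1qa per length, and each of the papain libraries had less. The mean fell from 1.35 ± 0.102 in the controls to 0.928 ± 0.0426 with papain, a log2 difference of -0.53. C1qc over C1qa was 1.04, 0.995 and 0.913 in the controls, and 0.744, 0.814 and 0.811 with papain, a log2 difference of -0.32.

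For both ratios the control and papain libraries did not overlap, and the exact two-sided permutation p was 0.1, the smallest that 3 against 3 libraries allow. The 7 ratios in 3 comparisons gave 21 such tests, and the adjusted exact p of these was 0.162. In papain plus exosomes against papain, both ratios overlapped (exact p = 0.6 and 0.3). StringTie values depend on the transcript models used, and whether that bears on these ratios was not tested.

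The C1q sum was also set against macrophage markers. The sum of the 3 chains was divided by the mean of 6 markers, Csf1r, Adgre1, Cd68, Mrc1, Cx3cr1 and Aif1. This ratio was 18.2 ± 0.993 in the controls, 20.6 ± 1.73 with papain and 20.7 ± 1.44 with papain plus exosomes. The groups overlapped, with exact p of 0.2 for each of the papain groups against control. All 8 listed macrophage markers together summed to 11.3 to 12.1 FPKM in the controls, 13.8 to 22.3 with papain and 22.7 to 35.9 with papain plus exosomes. Scaled, they summed to 14.8 to 15.8, 18.8 to 22.9 and 19.3 to 22.5. No macrophage marker was at 0 in all libraries, Aif1 being at 0 in 2. The macrophage sum moved with the C1q genes, but its members did not all do so. Mrc1, the mannose receptor, averaged 1.63 FPKM in the controls, 3.26 with papain and 1.97 with papain plus exosomes (scaled 2.13, 3.60 and 1.35). It was called lower in papain plus exosomes against papain on both scales, by -0.52 as deposited and -0.98 scaled (adjusted p = 0.0142 and 0.00202). Cd163, which was not tested, averaged 0.273, 0.516 and 0.350 FPKM. The part of macrophages in the C1q rise was not tested beyond this ratio.

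**Figure D3:**
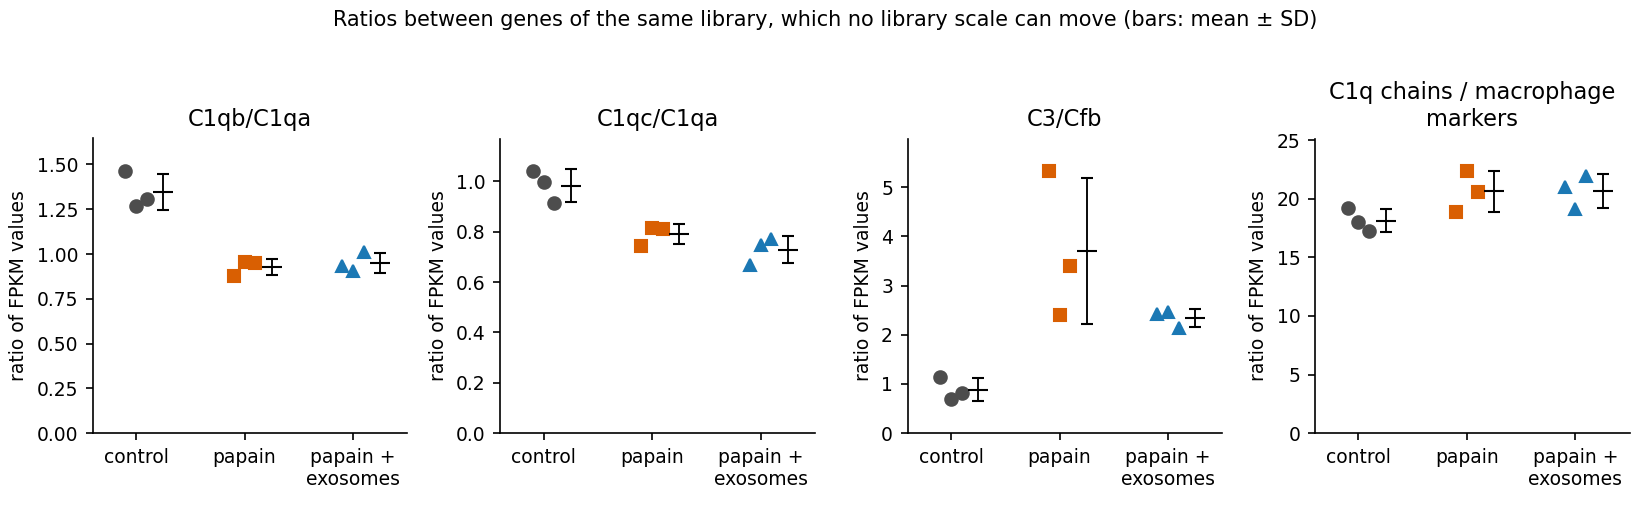
Ratios of FPKM values within a library for C1qb to C1qa, C1qc to C1qa, C3 to Cfb, and the sum of the C1q chains to the mean of 6 macrophage markers, with mean ± SD of 3 libraries per group. The control libraries lie above the papain libraries for the first ratios and below them for C3 to Cfb, while the last ratio overlaps between groups.

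C2 encodes the protease of the classical-pathway convertase and is the close relative and neighbour of Cfb, at chr17:34862604-34898265 on the minus strand. It held 1.55, 1.08 and 1.20 FPKM in the controls, 1.20, 0.962 and 1.35 with papain and 2.35, 2.37 and 1.79 with papain plus exosomes. Control and papain libraries overlapped, and the change was -0.07 (adjusted p = 0.848) and scaled -0.22 (adjusted p = 0.217). The deposited rise from papain to papain plus exosomes, 0.55 (adjusted p = 0.011), was 0.10 scaled (adjusted p = 0.492), and it was lost without papain-plus-exosome library 2 (adjusted p = 0.0572). Against control the change was 0.48 as deposited (adjusted p = 0.0153) and -0.12 scaled (adjusted p = 0.411). The deposited call was lost without control 2 or 3 or papain-plus-exosome 1 or 2 (adjusted p 0.0502 to 0.0715).

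Within a library, C2 over Cfb fell from 0.989, 0.760 and 0.712 in the controls to 0.505, 0.253 and 0.342 with papain, and was 0.185, 0.260 and 0.263 with papain plus exosomes. C3 over Cfb moved the other way, from 1.14, 0.699 and 0.819 to 5.32, 2.39 and 3.39, and was 2.42, 2.47 and 2.14 with papain plus exosomes. Both ratios separated control from papain libraries (exact p = 0.1, the smallest possible) and overlapped between the papain groups (exact p = 0.3 for each). Cfp over C3 fell from 1.10, 1.98 and 1.45 to 0.335, 0.256 and 0.355 (exact p = 0.1).

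C4b encodes complement C4, which is cut by the C1 complex and binds covalently to surfaces. It held 0.771, 0.966 and 0.783 FPKM in the controls, 1.66, 3.42 and 1.62 with papain and 2.15, 2.32 and 1.51 with papain plus exosomes. The papain libraries lay above the controls, and papain library 2 was the highest of all 9. As deposited, every control lay under the filter of 1 FPKM, so C4b was tested only through the papain groups. The rise of 0.77 ± 0.20 was called (adjusted p = 0.0363), but not after scaling, at 0.70 (adjusted p = 0.124). It was lost without any single control or without papain 2 (adjusted p 0.0561 to 0.125), without a filter on low values (adjusted p = 0.162) and after rescaling to a common sum (adjusted p = 0.109). Papain plus exosomes against papain gave -0.08 (adjusted p = 0.732), and scaled -0.55 (adjusted p = 0.135), and the deposited change was 0.17 without papain 2. Scaled, papain library 2 held 4.81 FPKM and the other papain libraries 1.55 and 1.67. Without it the scaled change was 0.32 in papain against control and -0.17 in papain plus exosomes against papain. Against control it was 0.69 (adjusted p = 0.0045), and 0.15 scaled (adjusted p = 0.706).

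C4b over C3 was 0.429, 0.973 and 0.567 in the controls, 0.132, 0.375 and 0.121 with papain, and 0.0698, 0.103 and 0.104 with papain plus exosomes. The 3 groups did not overlap (exact p = 0.1 in each comparison). C4b is on the minus strand at chr17:34728380-34743882. Its near-copy C4a lies 65210 bases away and had no row in the deposited table, so C4b values may hold reads of either copy and are uncertain.

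The order of the 9 levels, which FPKM allows because it is per length, changed mostly at C3. In the controls the order was C1qb, C1qa, C1qc, Cfp, Cfb, C3, C2, C4b and Cfd. With papain it was C1qa, C1qb, C1qc, C3, Cfp, Cfb, C4b, C2 and Cfd. With papain plus exosomes Cfb stood above Cfp and C2 above C4b, with the rest of the order as with papain. Neighbours whose order was not the same in all 3 libraries were, in the controls, C1qa and C1qc, Cfb and C3, C3 and C2, and C4b and Cfd. With papain they were Cfp and Cfb, and with papain plus exosomes C1qa and C1qb, and C1qc and C3.

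The genes whose scaled values followed each member most closely over the 9 libraries were found by Pearson r on log2(scaled FPKM + 1) among 12183 named genes, as a description. The points share library composition and fall into 3 groups. For C3 they were Glipr2 (0.988), Apobec3 (0.986) and Bpifb1 (0.986). For C1qa they were Tst (0.979), C3 (0.974) and Apobec3 (0.972). Cfb was followed most closely by Irf1 (0.983), an interferon-induced transcription factor, then Alkbh7 (0.975) and Ucp2 (0.974).

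For Cfp the closest were Lpgat1, Adora1 and Sirpa, for C1qb Tor3a, Ccl28 and Nek2, and for C1qc Clca3a2, AI467606 and Cyp4f18. For C2 they were Zfp46, Scnm1 and Ly6c1, and for C4b Eif5a, Med1 and Tmc6. Cfd, which lies under the filter, was followed most closely by Cfap97, Nudt12 and Inha. None of the 9 genes but C3, beside C1qa, appears among the 3 closest of another.

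Beside these 9, 45 other complement genes were listed, 44 had a row in the table and 19 passed the filter (18 after scaling). As deposited, Cfi, C3ar1 and the regulator Cd46 had no control library at 1 FPKM and passed only through the papain groups. In papain against control, 2 of 19 rose and none fell, beside 3.01% of all genes higher and 0.518% lower. The same 2 of 18 rose scaled and none fell, beside 5.77% higher and 4.15% lower. The median change of the tested other genes was 0.18 against 0.19 for all genes, and 0.00189 scaled against -0.00399. In papain plus exosomes against papain 8 of 19 rose and none fell as deposited, beside 63% of all genes higher and 0.73% lower. Scaled, 1 of 18 rose and 2 fell, beside 13.4% and 16.2%. Against control the counts were 14 higher and 0 lower as deposited, beside 84.3% and 0.526% of all genes. Scaled, 1 was higher and 3 lower, beside 12.3% and 15.6%.

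**Figure D4:**
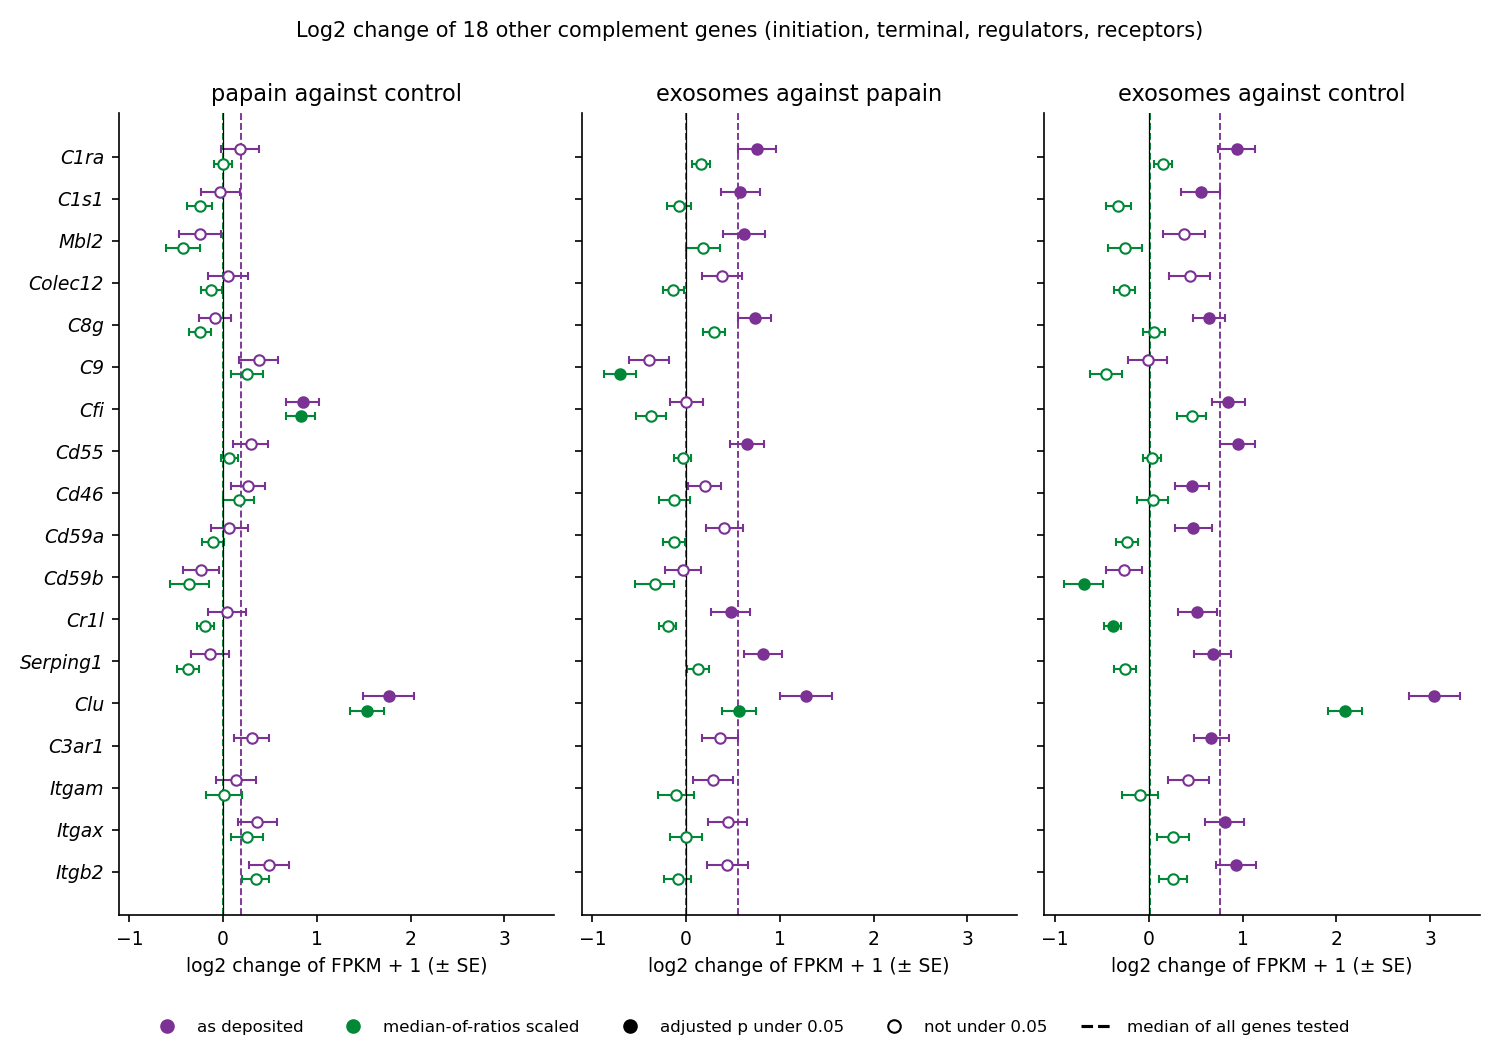
Change in log2(FPKM + 1) of 18 of the 19 tested complement genes outside the 9, by role, in each comparison, as deposited and after scaling. Clu stands out among them, with 1.77 as deposited and 1.53 scaled in papain against control.

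Among the regulators, Clu and Cfi were the pair that rose with papain, out of 9 tested. Clu encodes clusterin, an extracellular chaperone that also binds the terminal complex. It held 36.4, 46.9 and 45.5 FPKM in the controls, 183, 88.7 and 197 with papain, and 464, 410 and 243 with papain plus exosomes. All 3 groups stood apart. The papain rise was 1.77 ± 0.27 (adjusted p = 0.000471) and 1.53 scaled (adjusted p = 0.00119). Papain plus exosomes against papain gave 1.28 (adjusted p = 0.00143) and 0.56 scaled (adjusted p = 0.0426). That scaled call was lost without control 2 or 3, papain 1 or 2, or papain-plus-exosome 1 or 2 (adjusted p 0.0532 to 0.134), and without papain 2 the change was 0.37.

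Cfi encodes factor I, the protease that inactivates C3b and C4b. It held 0.351, 0.235 and 0.357 FPKM in the controls, 1.20, 0.944 and 2.09 with papain, and 1.31, 1.29 and 1.49 with papain plus exosomes. The controls lay below every other library. They were under the filter of 1 FPKM on both scales, so Cfi was tested only through the papain groups. The papain rise was 0.85 ± 0.18 (adjusted p = 0.00727) and 0.83 scaled (adjusted p = 0.0118), and the deposited call was lost without control 2 (adjusted p = 0.0506) or papain 3 (adjusted p = 0.0789). Papain plus exosomes against control gave the same 0.85 (adjusted p = 0.000444), and 0.45 scaled (adjusted p = 0.058).

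Cr1l, a membrane regulator related to complement receptor 1, changed sign with the scale against control, from 0.52 (adjusted p = 0.0264) to -0.39 scaled (adjusted p = 0.0144). Its deposited call was lost without any single control or papain-plus-exosome 1 or 2 (adjusted p 0.0534 to 0.113), and its scaled call without control 3 or papain-plus-exosome 2 (adjusted p = 0.0525 and 0.0535). Cd59b, an inhibitor of the membrane attack complex, was lower with papain plus exosomes than in the controls after scaling, by -0.70 (adjusted p = 0.0346), but not as deposited, at -0.27 (adjusted p = 0.185). The scaled call was lost without any one papain-plus-exosome library (adjusted p 0.059 to 0.105). Serping1, the C1 inhibitor, and Cd55, a membrane decay accelerator, were higher with papain plus exosomes than with papain as deposited, by 0.82 and 0.65, and their scaled changes of 0.13 and -0.04 were not called.

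C1ra and C1s1 encode the proteases that C1q activates. In papain against control they changed by 0.18 and -0.03 and were not called on either scale. Papain plus exosomes exceeded papain by 0.76 for C1ra and 0.58 for C1s1 as deposited (adjusted p = 0.00463 and 0.0201), and by 0.16 and -0.08 scaled, neither called. The C1s1 call was lost without papain 2 or papain-plus-exosome 1 or 2 (adjusted p 0.0621 to 0.103). Mbl2, a mannose-binding lectin that starts the lectin pathway, rose by 0.62 in the same comparison as deposited (adjusted p = 0.0236). That call was lost without papain 2 or 3 or papain-plus-exosome 1 or 2 (adjusted p 0.0748 to 0.113), and the scaled change of 0.18 was not called.

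Of 7 terminal-pathway genes 2 were tested, C8g and C9. C9, the pore-forming unit, held 2.56, 0.863 and 1.27 FPKM with papain and 0.789, 1.36 and 0.574 with papain plus exosomes. These groups overlap, and the change of -0.39 was not called as deposited (adjusted p = 0.108). The scaled fall of -0.70 was called (adjusted p = 0.0153) and was lost without papain-plus-exosome library 1 (adjusted p = 0.0601). C8g rose by 0.73 as deposited in the same comparison (adjusted p = 0.00246), with a scaled change of 0.30 (adjusted p = 0.0784). Hc, which encodes C5, did not exceed 0.158 FPKM in any library.

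Of the receptors, C3ar1, which binds C3a, held 0.502 to 0.663 FPKM in the controls, 0.629 to 1.48 with papain and 1.07 to 2.14 with papain plus exosomes. No control reached the filter of 1 FPKM, so C3ar1 was tested only through the papain groups, mainly papain plus exosomes. It was called against control in the papain-plus-exosome group as deposited, at 0.67 (adjusted p = 0.00368), and fell below the filter after scaling. Itgax and Itgb2, chains of complement receptors 3 and 4, were called in that comparison as deposited and not after scaling, where each changed by 0.25. C5ar1, the C5a receptor, was below the filter and reached 1.31 FPKM at most. Markers of hepatocytes were close to 0, with Fgb at 0 in all 9 libraries, Alb in 7, and a sum over 6 markers of at most 0.506 FPKM.

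Other marker lists moved with the groups too. The sum of 7 neutrophil markers, most of it S100a8 and S100a9, was 19.1 to 32.4 FPKM in the controls, 35.5 to 86.4 with papain and 71.1 to 88.2 with papain plus exosomes. Scaled, the ranges were 24.9 to 42.5, 50.0 to 89.0 and 40.8 to 75.0, so that the controls and the papain-plus-exosome libraries overlap. The sum of 5 epithelial markers was 243 to 269, 332 to 525 and 479 to 687 FPKM, and scaled 317 to 351, 467 to 491 and 381 to 407. The sum of 6 fibroblast markers was 306 to 407, 231 to 399 and 260 to 535 FPKM, and scaled 401 to 531, 291 to 374 and 221 to 307. In papain plus exosomes against control none of the 6 was called lower as deposited, beside 0.526% of all genes. Scaled, 5 of the 6 were called lower, beside 15.6%. Among them Dcn fell by 1.23 on the log2 scale after scaling (adjusted p = 0.000643).

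The 4 olfactory neuron markers summed to 255 to 344, 108 to 303 and 402 to 1008 FPKM, and scaled to 334 to 451, 153 to 283 and 342 to 632. Of 6 nasal gland markers, 1 was called lower with papain against control as deposited, beside 0.518% of all genes. All 6 were called lower with papain plus exosomes against control, beside 0.526%. Scaled, the counts were 1 and 5, beside 4.15% and 15.6%. The part of these cell types in the C3 and Cfb changes was not tested.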

How the data were processed

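RNA was measured by poly(A) sequencing of nasal mucosa in 9 libraries, grouped by the treatment in their labels. The authors deposited FPKM values per gene. Reads were trimmed with fastp 0.19.4, aligned to mm10 with HISAT2 and quantified with StringTie, per the submitters' processing notes. No source used here names the annotation, the strand setting or how shared reads were treated. FPKM is a share of the whole library, so when abundant transcripts shrink all other values go up. Counts could not be recovered, so no count test was run, and depth was estimated roughly from the spacing of low values.

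A single limma model (version 3.58.1, R 4.3.3; trended variance; Benjamini-Hochberg adjustment) over all 9 libraries was fitted to log2(FPKM + 1). Genes under 1 FPKM in more than 6 libraries were left out. The same fit was run on values divided by median-of-ratios factors. Ratios within a library were compared with exact two-sided permutation tests (SciPy 1.17.1). The procedure was tested on simulated data. Coordinates came from GENCODE M21 (GRCm38) and promoter windows from RefSeq (GRCm38.p6).

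The genes and lists were chosen with earlier results of these data known. Named were every member, up to 4 called genes of smallest p per role group and comparison among other complement genes plus 10 fixed ones, the 3 genes most alike to each member, and the defining markers. Among the other complement genes so named, not all are described, and 1 gene that enters their counts is not reported here.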

Additional observations from a re-analysis of the deposited data

How the results depend on the processing

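FPKM fixes no absolute scale, 3 libraries per group limit the precision, and genes near 1 FPKM rest on few fragments. For most of the alternative runs below, the share of all genes called was not taken. Their counts show only how the calls depend on the processing and are no result about these genes. In papain against control the 4 complement genes called higher became 2 with no filter on low values, 2 after rescaling to a common sum, 2 when a log2 change of at least 1 was also required, and 7 without papain 2 and papain-plus-exosome 3, which were chosen after seeing the data. Leaving out 1 library gave 2 to 6. The 2 other complement genes became 1 with a filter at 5 FPKM, with a fit of the 2 groups alone or with the fold requirement, and 1 to 3 leaving out 1 library. Without papain 2 and papain-plus-exosome 3 they became 8, where 48.8% of all genes were called higher. Neither that 8 nor the 7 is therefore a result about these genes. Scaled, the 4 became 2 without control 3 or papain 3 (2 to 5 over single libraries left out) and 1 with the fold requirement. The scaled 2 others became 1 with papain 2 and papain-plus-exosome 3 both left out or with the fold requirement, and 1 was called lower without papain 1.

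In papain plus exosomes against papain the 7 became 1 scaled, 1 with the fold requirement and 4 to 7 leaving out 1 library. The 8 others became 1 higher and 2 lower scaled, 5 at the 5 FPKM filter, 14 after rescaling to a common sum, 1 with the fold requirement and 5 to 14 leaving out 1 library, where 0 to 1 were lower. The scaled single calls, Cfb and Clu, became 0 with the fold requirement. Leaving out 1 library gave 0 to 1 for each and 1 to 2 lower, and the fold requirement 0 lower. Beside the scaled count of 0 members without a given library, the adjusted p of Cfb was 0.0625 to 0.157. Against control the 8 became 5 and the 14 became 6 at the 5 FPKM filter, which fewer genes pass. The 14 became 1 higher and 3 lower scaled, 1 with the fold requirement and 9 to 17 leaving out 1 library. Scaled, the 6 became 2 with the fold requirement and 3 without papain-plus-exosome 2, and the others gave 1 to 2 higher and 1 to 5 lower leaving out 1 library, and 0 lower with the fold requirement.

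The labels state no pairing of libraries by replicate number. As deposited, deviations from the group means correlated at -0.312 to 0.141 between same-numbered libraries and at -0.408 to 0.402 between the others. With 3 libraries per group this cannot exclude a pairing. With a replicate block the counts as deposited were 4, 7 and 8, and scaled 3, 0 and 6. The share of all genes called with the block was not taken, so these counts have no background. Scaled with the block, the Cfb adjusted p was 0.0774 in papain plus exosomes against papain, and Cfp in papain against control had 0.0606. The block also left 0 scaled others higher against papain and 2 higher against control. It lost Clu scaled (adjusted p = 0.0782), Cd59b scaled (0.0683) and Cr1l in papain plus exosomes against papain as deposited (0.0535), and gained Cfi scaled against control (0.0388).

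Scaling turned C1ra in papain against control from 0.18 to -0.005856. It turned papain plus exosomes against papain to -0.0931 for C1qc, -0.0759 for C1s1, -0.0352 for Cd55, -0.37 for Cfi, -0.00241 for Cfp and -0.20 for Cr1l, and against control to -0.33 for C1s1, -0.12 for C2, -0.39 for Cr1l and -0.25 for Serping1. As deposited these changes were 0.48 to 0.68, but for Cfi at 0.000608. Rescaling to a common sum gave 0.0546 for C1s1 in papain against control and 0.20 for C4b in papain plus exosomes against papain. Leaving out papain 2 and papain-plus-exosome 3 gave 0.0696 for C1s1 and 0.000351 for C2 in papain against control, 0.29 for C4b and -0.18 for Cfi in papain plus exosomes against papain, and, scaled, 0.00689 for C1s1 in that comparison and -0.051 for C8g and -0.0434 for Cd55 against control.

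Leaving out 1 library gave, in papain against control, -0.19 to 0.0696 for C1s1, -0.13 to 0.0155 for C2 and, scaled, -0.055 to 0.0815 for C1ra (0.0322 without control 2). In papain plus exosomes against papain it gave -0.21 to 0.17 for C4b (0.0443 without papain-plus-exosome 3) and -0.14 to 0.19 for Cfi. Scaled, it gave -0.0637 to 0.0904 for C1qa (-0.00324 without papain-plus-exosome 2), -0.0684 to 0.14 for C1qb, -0.25 to 0.0378 for C1s1, -0.11 to 0.0181 for Cd55 (0.00575 without papain-plus-exosome 2) and -0.11 to 0.12 for Cfp (0.058 without papain-plus-exosome 3). Scaled against control it gave -0.051 to 0.11 for C8g (-0.00935 without control 2) and -0.0434 to 0.0728 for Cd55 (-0.022 without control 2). The causes of these changes were not tested. Of the planned ratios, C4b to C4a and Cfd to C3 were not run, since C4a had no row and Cfd is listed at 0 in 2 libraries.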
